A study of Mus musculus with 6 samples.

Results

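Cyclic AMP phosphodiesterases are the enzymes that break cyclic AMP down, and 10 of their genes are described here in mouse lung tumour cells with and without a guide against Lkb1. The genes are Pde3a, Pde3b, Pde4a, Pde4b, Pde4c, Pde4d, Pde7a, Pde7b, Pde8a and Pde10a, taken by symbol from a table of 55487 genes. Each symbol named 1 row, and all 10 passed the filter on low counts, together with 15978 genes in all. They were selected on symbol, after their fold changes between the groups in these same libraries were known, and the list leaves out 6 other genes whose enzymes also hydrolyse cyclic AMP, which are given beside it. The changes of the 10 genes are therefore descriptions, each with its value from the fit over all genes, and their count is no evidence about the family.

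The libraries came from KP tumours, a mouse model of lung adenocarcinoma, a background that both groups share. The sgNeo group carried a control guide and is labelled Lkb1 wild type, and the sgLkb1 group carried one against Lkb1 and is labelled Lkb1 mutant. Lkb1, whose gene is listed as Stk11, is an upstream kinase of AMPK and of the SIK family. Lungs were digested 11 weeks after tumour initiation and cells with GFP and without CD45 were taken by sorting, with 3 libraries per group. The alleles, the Cre driver, the age of the mice and any pooling of animals are not stated in the labels. The samples are called replicates without saying that they came from separate mice, so p-values measure the spread between these libraries, which may be technical.

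Cyclic AMP is made by adenylyl cyclases, mostly downstream of G proteins, and acts through protein kinase A, the EPAC exchange factors and a few other proteins. Protein kinase A drives CREB-dependent transcription, in which CRTC coactivators take part when SIK kinases do not hold them in the cytoplasm. Phosphodiesterases end the signal and keep it local: the PDE4, PDE7 and PDE8 enzymes are specific for cyclic AMP, whereas PDE3 and PDE10A enzymes also cleave cyclic GMP. PDE4 enzymes are the target of roflumilast in obstructive lung disease, and PDE3 enzymes are found in muscle, fat and platelets.

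The enzymes share a catalytic core whose signature holds a histidine and an aspartate that bind a metal ion, and a further histidine. The coding bases of the first 10 codons of that signature are shown because they are the part of the transcripts that the 10 genes have in common. They were read from the longest coding sequence of each gene in GENCODE M21, 5′ to 3′, with the codons of the histidine-aspartate pair and of the later histidine in capitals.
Pde3a: CATGACtacgatCACccagggaggacaaat
Pde3b: CACGATtacgatCACccaggaagaacaaat
Pde4a: CATGACgtggacCACcctggcgtctccaac
Pde4b: CATGATgtcgatCATcctggagtctccaat
Pde4c: CACGACgtagacCACccgggggtctccaac
Pde4d: CATGATgtggacCATcctggggtgtcaaat
Pde7a: CACGATctggatCACccaggtgttaatcag
Pde7b: CATGACgtggacCACccaggggtcaaccag
Pde8a: CATGACgtggatCACcctgggagaaccaac
Pde10a: CATGACctggacCACaggggcttcagtaac

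Each of the 10 coding sequences held the signature 1 time. Over these 30 bases Pde4d matched Pde4b at 25 positions, Pde4a at 24 and Pde4c at 22, and Pde10a, the least alike, matched Pde4b at 16. The paralogues were nonetheless distinct over longer stretches: the transcripts of Pde4a, Pde4b, Pde4d, Pde7b, Pde8a and Pde10a held no run of 50 bases that also occurs in another gene of the annotation. Pde3a shared 5.64% of its runs of 50 bases with other genes, mostly an antisense transcript, Gm28523, whose exon overlaps 741 bases of it, and Pde4c shared 60 of 5965 runs. An exon of Gm16093, also antisense, overlaps 48 bases of Pde7a, and without a stated strand setting reads of such partners cannot be told apart. All 60 deposited values of the 10 genes were whole numbers, while 11.3% of the values in the table were not. Fractional values arise where RSEM divides a read among genes.

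The targeted gene checked the labels first. Stk11 was at 68.3, 33.4 and 82.7 CPM (counts relative to the TMM-scaled library size) in sgNeo replicates 1, 2 and 3, and at 23.5, 25.6 and 25.3 CPM in the sgLkb1 replicates. No sgLkb1 library reached the sgNeo range, though sgNeo replicate 2 was near it. Stk11 fell by 1.31 on the log2 scale (SE of 0.30, edgeR adjusted p = 0.023), and the call was kept without sgNeo replicate 2 but lost on removal of any 1 of the other 5 libraries (highest edgeR adjusted p 0.0757). Total counts lay between 26007503 and 41729299 per library, and 3 counts corresponded to 0.119 to 0.121 CPM in sgNeo and to 0.0734 to 0.0861 CPM in sgLkb1.

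Of the 10 phosphodiesterase genes, 5 rose in sgLkb1, namely Pde10a, Pde4b, Pde3b, Pde8a and Pde4d, and Pde7b fell, while Pde3a, Pde4a, Pde4c and Pde7a did not pass the test (edgeR's quasi-likelihood test, Benjamini-Hochberg adjusted over all genes, at 0.05). Over all 15978 genes tested, 15.7% passed in either direction, 7.05% higher and 8.6% lower. The median log2 fold change (sgLkb1 minus sgNeo) was 0.70 over the 10 genes and 0.018 over all genes tested. The plot of levels by library shows that in 5 genes all sgLkb1 libraries were above all sgNeo libraries, and in 2, Pde7b and Pde4c, all were below. Over all genes tested, the groups did not overlap in 36.5%, with 16.3% upward and 20.3% downward. Each of the 5 rises kept its call in all 15 alternative fits, 6 of which left out a library.

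**Figure D1:**
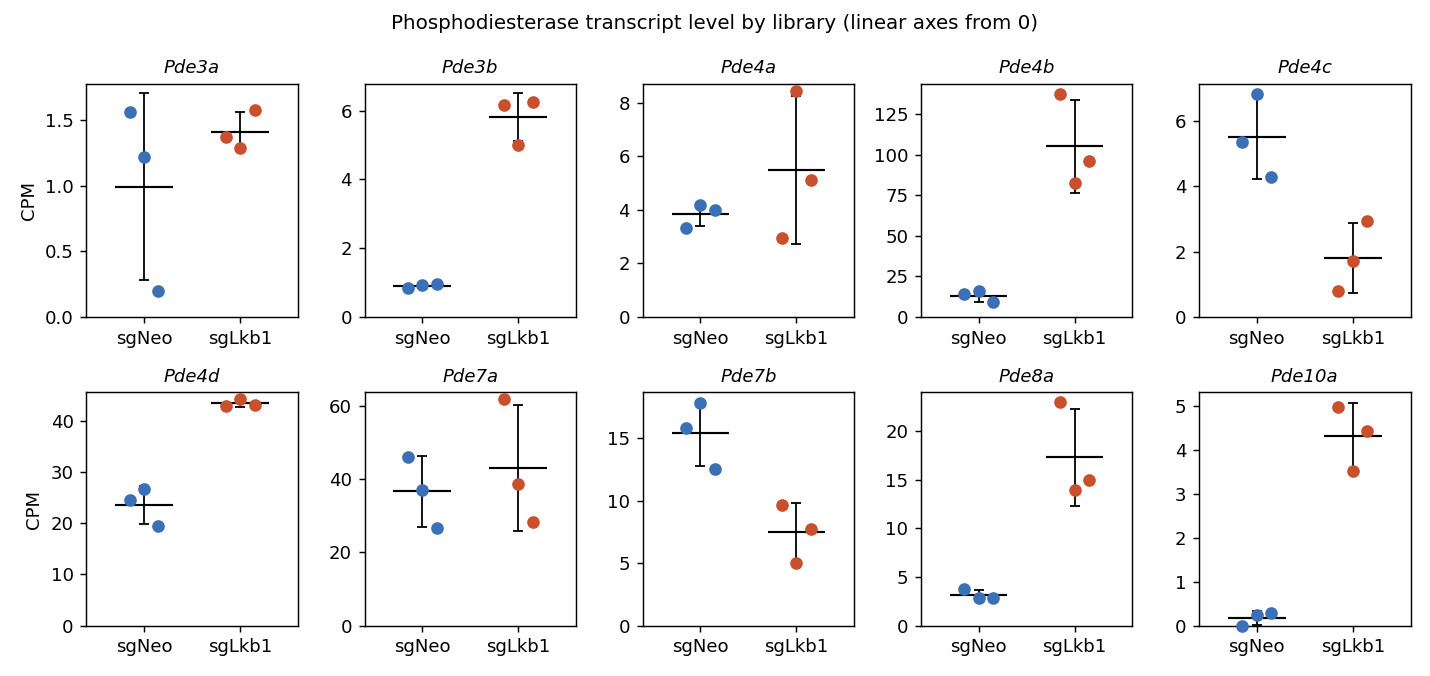
Transcript level (CPM) of each of the 10 phosphodiesterase genes on its own linear axis from 0; points are libraries (3 sgNeo, 3 sgLkb1), lines are group means and bars are SD. The groups are apart in Pde3b, Pde4b, Pde4d, Pde8a and Pde10a (sgLkb1 above) and in Pde4c and Pde7b (sgLkb1 below), and they overlap in Pde3a, Pde4a and Pde7a.

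Among the PDE4 genes Pde4b and Pde4d rose, and Pde4a and Pde4c did not pass. Pde4b, which in immune cells is the form that sustains inflammatory cytokine output, was at 14.2, 16.2 and 8.96 CPM in sgNeo replicates 1, 2 and 3, and at 137, 82.4 and 96.1 CPM in sgLkb1 replicates 1, 2 and 3. The lowest sgLkb1 library was therefore far above the highest sgNeo library. The means were 13.1 ± 3.71 and 105 ± 28.6 CPM (SD, n = 3), an 8.04-fold rise (log2 fold change 3.01, SE of 0.28, edgeR adjusted p = 0.00080). Over the 6 fits on 5 libraries the log2 fold change of Pde4b lay between 2.78 and 3.18. Its locus is chromosome 4, 102087543 to 102607259, plus strand (GRCm38, as for all loci here), with 13 annotated transcripts.

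Pde4d, the PDE4 form best known for binding beta-arrestin at receptors, rose by less and with little spread. It was at 24.5, 26.6 and 19.5 CPM in the sgNeo replicates, and at 42.8, 44.3 and 43.2 CPM in the sgLkb1 replicates. The sgLkb1 libraries lay close together, all above the sgNeo libraries. The means were 23.6 ± 3.68 and 43.4 ± 0.78 CPM (SD, n = 3), a 1.84-fold rise (log2 fold change 0.88, SE of 0.17, edgeR adjusted p = 0.011). The edgeR adjusted p of Pde4d reached 0.045 over the alternative fits. Pde4d is a gene of 1503514 bases on chromosome 13 (108449948 to 109953461, plus strand), with 20 annotated transcripts. The table holds 1 value per gene, so long and short PDE4 forms, which differ in their regulatory domains, cannot be told apart here.

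The proportion of Pde4b to Pde4d also differed between the groups, with no overlap. There were 0.577, 0.606 and 0.460 Pde4b counts for each Pde4d count in the sgNeo libraries, against 3.21, 1.86 and 2.23 in those of sgLkb1. This ratio is taken within a library and does not depend on the scaling between libraries.

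Pde4c, a form of low abundance in most tissues, was at 5.37, 6.84 and 4.30 CPM in the sgNeo replicates and at 0.783, 1.71 and 2.93 CPM in the sgLkb1 replicates. All sgLkb1 libraries were below all sgNeo libraries, but they spread over a wide range. The log2 fold change was -1.61 (SE 0.50) and did not pass (edgeR adjusted p = 0.066). It passed without sgLkb1 replicate 3 (log2 fold change -2.16, edgeR adjusted p = 0.0319) and with DESeq2 (adjusted p = 0.016) and limma-voom (adjusted p = 0.041). Pde4a was at 3.33, 4.17 and 3.98 CPM in sgNeo and 2.94, 8.42 and 5.11 CPM in sgLkb1. The sgLkb1 libraries lay on both sides of the sgNeo libraries, and Pde4a did not pass (log2 fold change 0.52, SE of 0.41, edgeR adjusted p = 0.44). Pde4a is on chromosome 9 (21165714 to 21213248) and Pde4c on chromosome 8 (70723720 to 70751186), both on the plus strand.

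The PDE8 gene among the 10 also rose. Pde8a, whose enzyme has a very high affinity for cyclic AMP, was at 3.77, 2.79 and 2.83 CPM in the sgNeo replicates and at 22.9, 13.9 and 14.9 CPM in the sgLkb1 replicates. No sgNeo library came near the sgLkb1 range. The means were 3.13 ± 0.55 and 17.3 ± 4.94 CPM (SD, n = 3), a 5.51-fold rise (log2 fold change 2.46, SE of 0.29, edgeR adjusted p = 0.0016). Its locus is chromosome 7, 81213596 to 81334533, plus strand.

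Its paralogue Pde8b, which is not among the 10, went the other way. Pde8b was at 16.6, 22.2 and 15.9 CPM in sgNeo and at 5.41, 5.41 and 4.16 CPM in sgLkb1, a fall of 1.87 on the log2 scale (SE of 0.24, edgeR adjusted p = 0.0023). Per kilobase of merged exons the ratio of Pde8a to Pde8b levels was 0.330, 0.183 and 0.258 in sgNeo replicates 1, 2 and 3. The same ratio was 6.17, 3.75 and 5.22 in sgLkb1 replicates 1, 2 and 3. The more abundant PDE8 gene was thus Pde8b in every sgNeo library and Pde8a in every sgLkb1 library. Pde8b kept its call in all 15 alternative fits.

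In the PDE3 pair only Pde3b passed the test; the difference between the pair was not tested. Pde3b, the form through which insulin lowers cyclic AMP in fat cells, was at 0.842, 0.931 and 0.956 CPM in the sgNeo replicates, and at 6.17, 5.01 and 6.26 CPM in the sgLkb1 replicates. Both groups were tight and far apart. The means were 0.91 ± 0.060 and 5.81 ± 0.69 CPM (SD, n = 3), a 6.36-fold rise (log2 fold change 2.67, SE of 0.34, edgeR adjusted p = 0.0022). The sgNeo values rest on 21, 23 and 24 counts.

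Pde3a, the form of heart, platelets and vascular smooth muscle, was at 1.56, 1.21 and 0.199 CPM in sgNeo and at 1.37, 1.29 and 1.58 CPM in sgLkb1. The groups overlapped, and sgNeo replicate 3 held 5 counts against 30 and 39 in the other sgNeo libraries. The log2 fold change of Pde3a was 0.51 (SE of 0.69, edgeR adjusted p = 0.67), and without sgNeo replicate 3 it was 0.017. Pde3b lies on chromosome 7 (114415281 to 114539251) and Pde3a on chromosome 6 (141249269 to 141507448), both on the plus strand.

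Pde10a, an enzyme known best from striatal neurons, had the largest fold among the 10 and the lowest starting level. It had 0, 6 and 7 counts in sgNeo replicates 1, 2 and 3, and 204, 134 and 155 counts in the sgLkb1 replicates. In CPM these were 0, 0.243 and 0.279 against 4.99, 3.52 and 4.45. The sgLkb1 libraries all held the transcript at a similar level, and the sgNeo libraries held little or none. The log2 fold change was 4.60 (SE of 0.81, edgeR adjusted p = 0.0083). Since the sgNeo group held so few counts, the size of the fold is uncertain: it was 4.02 without sgNeo replicate 1 and 5.11 without sgNeo replicate 3 on the log2 scale. Its locus is chromosome 17, 8525372 to 8986648, plus strand.

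Of the PDE7 genes Pde7b fell and Pde7a did not pass. Pde7a, an enzyme of T cells and many other tissues, was at 46.2, 37.1 and 26.6 CPM in the sgNeo replicates and at 61.9, 38.8 and 28.4 CPM in the sgLkb1 replicates. The ranges overlapped, with sgLkb1 replicate 1 above every sgNeo library, and Pde7a did not pass (log2 fold change 0.23, SE of 0.31, edgeR adjusted p = 0.66). Pde7b was at 15.8, 17.8 and 12.6 CPM in sgNeo and at 9.64, 4.99 and 7.78 CPM in sgLkb1, all below sgNeo. It fell by 1.04 on the log2 scale (SE of 0.29, edgeR adjusted p = 0.045). That call was weak: on 5 libraries it was lost in 5 of 6 fits (highest edgeR adjusted p 0.16) and kept without sgLkb1 replicate 1, and lost with RLE scaling (edgeR adjusted p = 0.054). Pde7a is on chromosome 3 (19223108 to 19311322) and Pde7b on chromosome 10 (20398004 to 20725078), both on the minus strand.

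Levels of different genes can be compared only per length, for which CPM was divided by the kilobases of each gene's merged exons. In sgNeo Pde7a was the most abundant of the 10, at 4.73 ± 1.26 CPM per kilobase (SD, n = 3), followed by Pde4d at 1.96 ± 0.31. With this length, each of these was separated from the next gene in all libraries. Pde4b, Pde7b, Pde4c and Pde8a followed at 1.24 to 0.774 CPM per kilobase, and neighbours in that order overlapped. Pde4a (0.500), Pde3b (0.0998), Pde3a (0.0779) and Pde10a (0.0135 CPM per kilobase) were lowest, and Pde3b, Pde3a and Pde10a overlapped in order.

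In sgLkb1 the order was led by Pde4b at 9.97 ± 2.71 CPM per kilobase, followed by Pde7a at 5.55 ± 2.21, Pde8a at 4.27 ± 1.22 and Pde4d at 3.62 ± 0.065 (SD, n = 3). Neighbours among these overlapped, and all of them lay above Pde4a at 0.717 CPM per kilobase. The order was also read with the length of the longest transcript in place of merged exons. Pde4b still led in sgLkb1, while Pde4d moved from the fourth to the second place there. In sgNeo Pde7a and Pde4d were then nearly level, at means of 5.82 and 5.60 CPM per kilobase. The clear lead of Pde7a in sgNeo thus depends on the length used. Among the tested genes that have a length, Pde4b stood at percentiles 26.8 to 35.0 in sgNeo and 67.1 to 77.1 in sgLkb1.

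Summed over the 10 genes, the level was 13.2, 12.6 and 9.05 CPM per kilobase in sgNeo replicates 1, 2 and 3, against 32.7, 22.7 and 23.0 in the sgLkb1 replicates. Without Pde4b the sums were 11.8, 11.1 and 8.20 against 19.7, 14.9 and 13.9. Pde4b made up 10.2, 12.1 and 9.37% of the sum in the sgNeo replicates and 39.8, 34.4 and 39.5% in the sgLkb1 replicates. Pde7a made up 45.3, 37.9 and 38.0% in sgNeo and 24.4, 22.1 and 15.9% in sgLkb1. These sums are descriptions, because their genes were chosen with the comparison known. Sums and shares here and below use merged exons, and like the order they depend on the length used. With the longest transcript, the sgNeo means were 5.82 CPM per kilobase for Pde7a and 5.60 for Pde4d. The sgLkb1 mean of Pde4b was then 24.5 CPM per kilobase, against 9.97 with merged exons.

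The 6 cyclic AMP phosphodiesterase genes left out of the list add further members of the family. Of the 4 that were tested, Pde8b and Pde1b fell and none rose, while Pde1c and Pde2a did not pass. Over all genes tested, 8.6% fell. Pde1b, of the calmodulin-activated PDE1 group, was at 3.33, 3.60 and 1.87 CPM in sgNeo and 1.05, 0.341 and 0.889 CPM in sgLkb1 (a log2 difference of -1.94, SE of 0.55, edgeR adjusted p = 0.049). The Pde1b call was lost in each of the 6 fits on 5 libraries (highest edgeR adjusted p 0.16). Pde1c was at 9.91, 10.1 and 7.65 CPM in sgNeo and 6.95, 3.20 and 7.75 CPM in sgLkb1 (log2 fold change -0.63, edgeR adjusted p = 0.28).

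Pde2a, which cyclic GMP activates, was at 13.3, 9.96 and 8.44 CPM in sgNeo and 1.81, 7.74 and 8.89 CPM in sgLkb1. Its groups overlapped (log2 fold change -0.78, edgeR adjusted p = 0.36). Pde11a and Pde1a did not pass the filter on low counts and were not tested in the main fit. No sgNeo library held a Pde11a count, and there were 163, 11 and 155 in sgLkb1 replicates 1, 2 and 3. Against a floor of 3 counts over the sgNeo group, the pooled sgLkb1 level of Pde11a was at least 72.0-fold higher. That value does not hold for each library, since sgLkb1 replicate 2 was at 0.289 CPM against a floor of 0.0401 CPM. With no filter on low counts Pde11a was called higher (log2 fold change 9.55, edgeR adjusted p = 2.22e-08). The fit without the filter also gave Pde4b a smaller edgeR adjusted p, 3.21e-17 against 0.000801 in the main fit. Pde1a held 5 counts over the sgNeo group and 60 over the sgLkb1 group, of which 44 were in 1 library.

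Over all 16 cyclic AMP genes, 14 were tested, 5 rose and 3 fell, with a median log2 fold change of 0.37. Over all genes tested, 7.05% rose and 8.6% fell. The sum over the 16 was 19.3, 19.2 and 13.9 CPM per kilobase in sgNeo replicates 1, 2 and 3, against 35.3, 25.2 and 26.8 in the sgLkb1 replicates. The sgLkb1 sums were thus all higher also when the genes left out were counted. The 6 genes made up 31.8, 34.2 and 34.7% of that sum in the sgNeo libraries and 7.21, 9.95 and 14.1% in the sgLkb1 libraries. Pde8b alone made up 14.6 to 19.6% in sgNeo and 2.61 to 3.65% in sgLkb1. The shares of these genes hold for merged exons and depend on the length used.

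**Figure D2:**
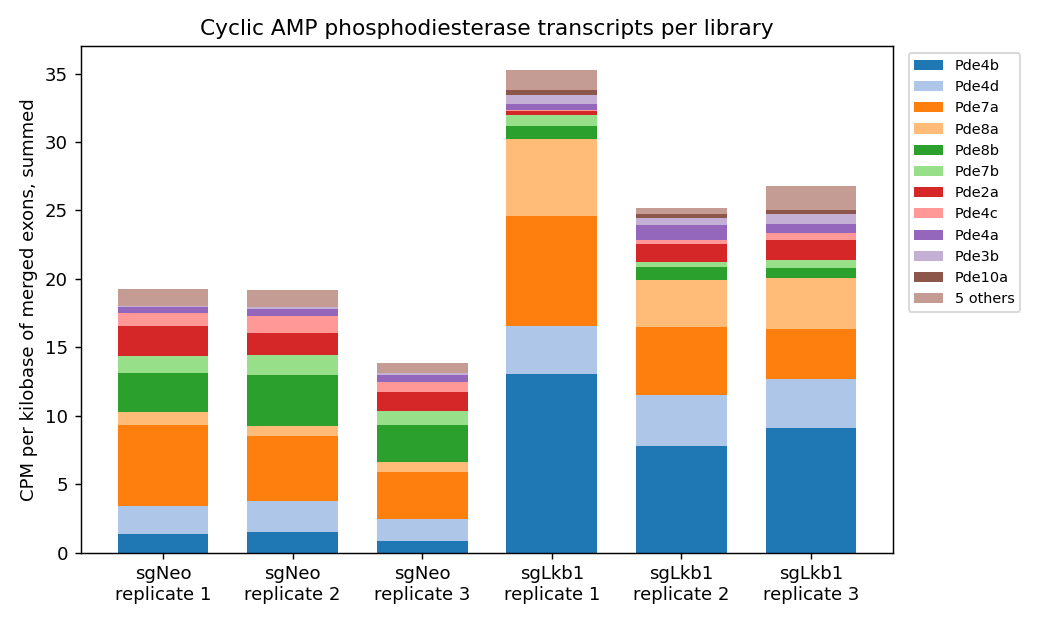
Summed level of the 16 cyclic AMP phosphodiesterase genes in each of the 6 libraries, in CPM per kilobase of merged exons on a linear axis from 0. Genes are segments, with 5 genes of low level (Pde3a, Pde1a, Pde1b, Pde1c and Pde11a) together. Pde7a and Pde8b are large segments in sgNeo, and Pde4b and Pde8a are large segments in sgLkb1.

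Among the 8 genes of cyclic GMP phosphodiesterases, 3 were tested and Pde9a rose, beside 7.05% higher over all genes tested. Pde9a, which has a high affinity for cyclic GMP, was at 1.04, 1.42 and 2.23 CPM in sgNeo and 4.65, 12.3 and 7.78 CPM in sgLkb1 (a log2 difference of 2.40, SE of 0.47, edgeR adjusted p = 0.013). That call, the only 1 of the list, was lost without sgNeo replicate 2 (edgeR adjusted p = 0.0612). Pde5a, the target of sildenafil, was at 4.81, 0.810 and 0.757 CPM in sgNeo and 3.16, 9.03 and 4.94 CPM in sgLkb1 and did not pass (edgeR adjusted p = 0.25). Pde5a passed without sgNeo replicate 1, which made 2 calls higher. Pde6d, a carrier of prenylated proteins rather than an enzyme, had a log2 fold change of -0.65 (edgeR adjusted p = 0.061). The 5 other genes, those of the photoreceptor phosphodiesterase, had 29 counts or fewer over each group, and Pde6c had none.

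**Figure D3:**
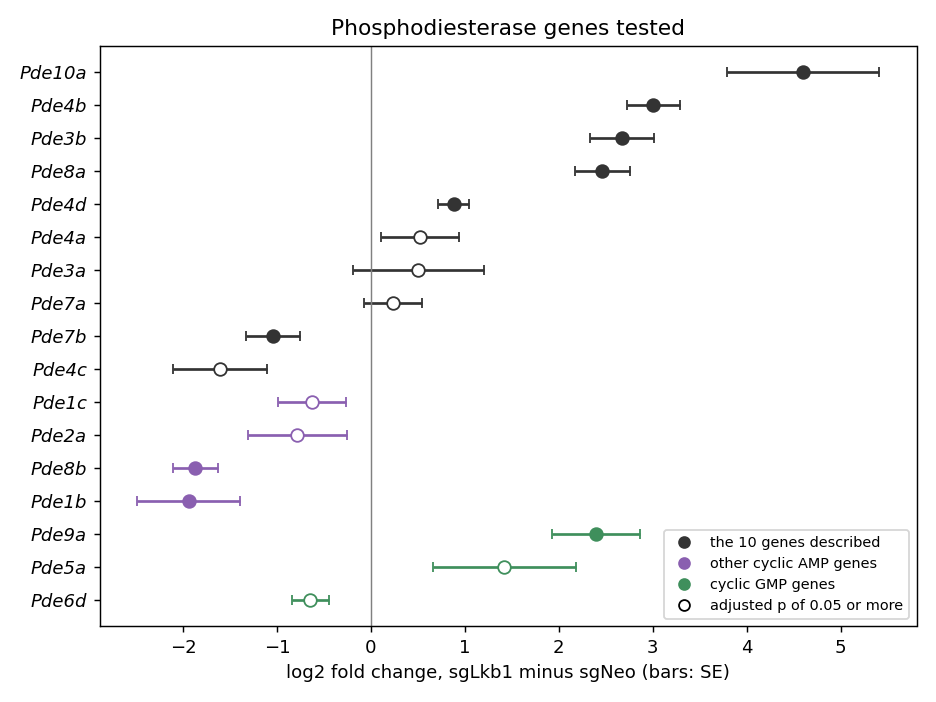
Log2 fold change (sgLkb1 minus sgNeo) with its SE for the 17 phosphodiesterase genes that were tested; filled points passed at an adjusted p of 0.05 and open points did not. Among cyclic AMP genes the values run from 4.60 for Pde10a to -1.94 for Pde1b, and Pde8a and Pde8b lie on opposite sides of 0.

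Cyclic AMP is made by adenylyl cyclases, and 7 of their 10 genes were tested. Of these 1 fell and none rose, against 15.7% called over all genes tested (median log2 fold change -0.25). Adcy7, a cyclase known from blood and immune cells, was at 190, 166 and 148 CPM in sgNeo and 21.3, 20.8 and 23.4 CPM in sgLkb1, a fall of 2.94 on the log2 scale (SE of 0.16, edgeR adjusted p = 0.00017). Adcy8, a calcium-stimulated cyclase, was at 0, 0.364 and 0.199 CPM in sgNeo and 0.661, 3.73 and 2.47 CPM in sgLkb1. All sgLkb1 libraries were above all sgNeo libraries, but Adcy8 did not pass (log2 fold change 3.58, edgeR adjusted p = 0.0541). It was called higher without sgLkb1 replicate 1 (edgeR adjusted p = 0.0328), with no filter on low counts (edgeR adjusted p = 0.000961), with a replicate block (edgeR adjusted p = 0.0169) and with DESeq2 (adjusted p = 0.00233).

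Of the G protein and effector genes 1 passed the test, beside 15.7% of all genes tested. None of the 6 tested alpha subunits that stimulate or inhibit adenylyl cyclase passed in edgeR, DESeq2 or limma-voom, and 1 had an unadjusted p below 0.05 in edgeR. Without sgLkb1 replicate 1 there was 1 call, higher. Gnas, the stimulatory subunit, was at 469, 421 and 531 CPM in sgNeo and 315, 409 and 403 CPM in sgLkb1 (log2 fold change -0.33, edgeR adjusted p = 0.25). Of 11 tested effectors 1 fell, Prkar1b, a regulatory subunit of protein kinase A (6.22, 7.21 and 17.1 CPM against 2.30, 2.15 and 3.01 CPM, log2 fold change -2.03, edgeR adjusted p = 0.018). The Prkar1b call was lost without sgLkb1 replicate 2 (edgeR adjusted p = 0.0648), and DESeq2 called 3 effectors, 2 of them higher. These were the regulatory subunit gene Prkar2b, which edgeR called higher without sgLkb1 replicate 1 (adjusted p = 0.0455), and the inhibitor gene Pkib, which edgeR called higher without sgLkb1 replicate 2 (adjusted p = 0.0307). The catalytic subunits Prkaca and Prkacb did not pass, with log2 fold changes of -0.53 and 0.045 (edgeR adjusted p = 0.14 and 0.89).

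Of 13 tested scaffolds and partners of phosphodiesterases 1 rose, beside 7.05% higher over all genes tested. This was Akap12, which anchors protein kinase A and PDE4D at beta-adrenergic receptors. Akap12 was at 2.65, 2.59 and 1.31 CPM in sgNeo and 6.04, 9.50 and 13.4 CPM in sgLkb1 (a log2 difference of 2.14, SE of 0.42, edgeR adjusted p = 0.013). Pde4dip, myomegalin, which tethers PDE4D at the Golgi and centrosome, was at 47.6, 46.7 and 35.6 CPM in sgNeo and 27.9, 31.3 and 27.3 CPM in sgLkb1. Pde4dip did not pass (log2 fold change -0.59, edgeR adjusted p = 0.0515), but did without sgNeo replicate 3 (edgeR adjusted p = 0.0447). On all 6 libraries it passed with DESeq2 (adjusted p = 0.0285) and with a replicate block (edgeR adjusted p = 0.0434). It also passed with a filter of 1 CPM in 3 libraries (edgeR adjusted p = 0.0476). The list had 2 calls, 1 higher and 1 lower, without sgNeo replicate 3 and also without sgLkb1 replicate 3. With DESeq2 it had 3 calls, 2 of them higher.

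Of 9 tested CREB, CRTC and SIK genes, 2 rose, beside 7.05% higher over all genes tested. These were the kinase genes Sik1 and Sik2, whose products keep CRTC coactivators out of the nucleus. Sik1 was at 51.8, 54.1 and 49.8 CPM in sgNeo and 113, 102 and 104 CPM in sgLkb1 (a log2 difference of 1.04, SE of 0.13, edgeR adjusted p = 0.0023). Sik2 was at 7.54, 4.45 and 5.74 CPM in sgNeo and 16.2, 15.7 and 14.4 CPM in sgLkb1 (log2 fold change 1.38, edgeR adjusted p = 0.0095). Of 11 tested genes known to be induced by cyclic AMP, 3 rose, Nr4a2, Inhba and again Sik1 (5 by DESeq2), beside the same 7.05%. Nr4a2, a nuclear receptor, was at 14.2, 19.4 and 16.7 CPM in sgNeo and 72.2, 62.8 and 68.6 CPM in sgLkb1 (a log2 difference of 2.02, SE of 0.17, edgeR adjusted p = 0.00063). Its relative Nr4a1 was at 113, 127 and 102 CPM in sgNeo and 104, 94.5 and 106 CPM in sgLkb1 and did not pass (edgeR adjusted p = 0.48). Inhba, an activin subunit, had a log2 fold change of 4.39 (SE of 1.19, edgeR adjusted p = 0.041), a call lost without sgNeo replicate 1 or 2 or sgLkb1 replicate 2 or 3 (highest edgeR adjusted p 0.115).

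**Figure D4:**
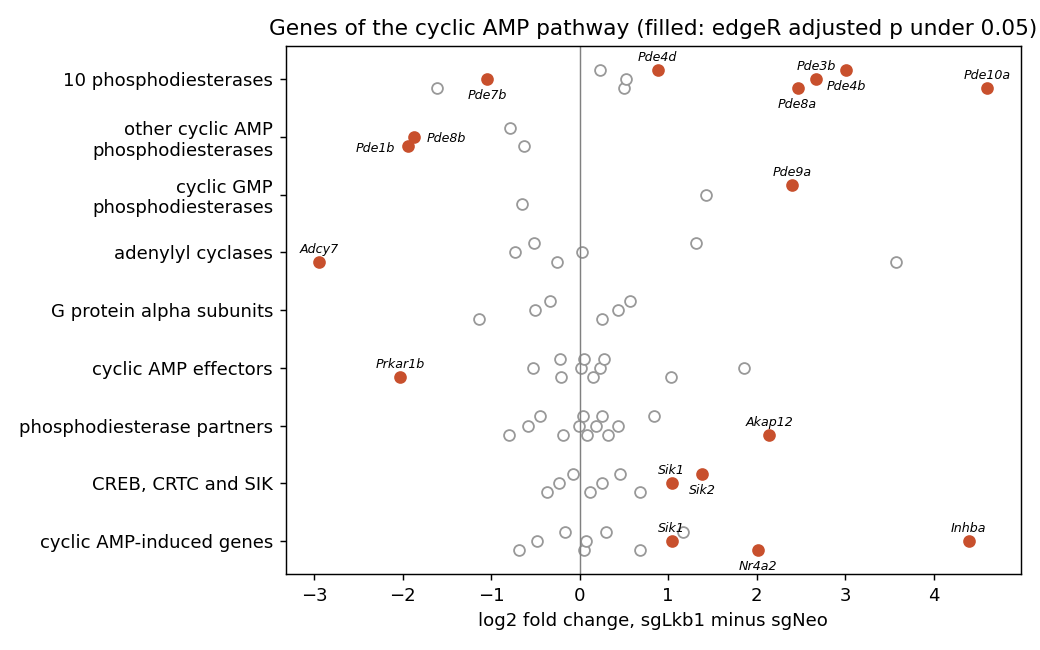
Log2 fold change (sgLkb1 minus sgNeo) of every tested gene of the cyclic AMP lists, with a row for each list and a point for each gene; filled points passed at an edgeR adjusted p of 0.05 and carry their names. The filled points on the left are Pde7b, Pde1b, Pde8b, Adcy7 and Prkar1b, and those on the right are the other called phosphodiesterases, Akap12, Sik1, Sik2, Nr4a2 and Inhba.

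CREB binds the palindrome TGACGTCA, the cyclic AMP response element, and its half-site, which reads TGACG on 1 strand and CGTCA on the other. RefSeq windows of 300 bases, 250 before and 50 after an annotated start on GRCm38.p6, were at hand for 7 of the 10 genes, with 13 windows in all. None of the 13 held the full element, which 1.79% of all 32851 windows hold. The half-site occurred in 3 of the 13, at 1 start each of Pde4b, Pde8a and Pde4a, and in 20.8% of all windows (any full element also counts as a half-site). The 150 bases before these starts are shown, 5′ to 3′ on the plus strand, with the half-site in capitals, since Pde4b and Pde8a were among the genes that rose and Pde4a was not.
Pde4b chr4:102421405-102421554: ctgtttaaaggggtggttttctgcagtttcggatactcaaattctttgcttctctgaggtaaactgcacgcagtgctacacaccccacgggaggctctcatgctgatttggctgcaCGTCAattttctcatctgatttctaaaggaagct
Pde8a chr7:81213115-81213264: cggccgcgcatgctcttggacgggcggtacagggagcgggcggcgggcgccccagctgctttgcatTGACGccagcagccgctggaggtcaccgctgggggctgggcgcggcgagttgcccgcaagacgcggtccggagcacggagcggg
Pde4a chr9:21183951-21184100: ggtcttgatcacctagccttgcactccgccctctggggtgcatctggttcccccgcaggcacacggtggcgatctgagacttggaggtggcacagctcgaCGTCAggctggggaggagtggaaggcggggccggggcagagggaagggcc

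The half-site begins 34 bases before the Pde4b start, 84 before the Pde8a start and 50 before the Pde4a start. The windows differ in base composition, with 47.0% G and C for Pde4b, 68.7% for Pde8a and 64.0% for Pde4a. The Pde4b start at 102421555 and the Pde4a start at 21184101 are internal starts. The Pde8a start at 81213265 lies before the locus start given above. The 3 further Pde4b windows, 2 further Pde4a windows, the single windows of Pde4c, Pde4d and Pde7b and the 2 windows of Pde10a held no half-site. The counts do not show which start was used, and a match of letters is a description of these windows.

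Genes with the most similar pattern were found by the root-mean-square difference in log2 CPM, centred on each gene's mean, over the 6 libraries. For Pde4b they were Far1, an enzyme of ether lipid synthesis (difference 0.21), and Mgat4a, a glycosyltransferase (0.28). Sbf2 was among the nearest to Pde4d (0.095), and for Pde8a they were Il33, an epithelial alarmin cytokine (0.22), and Ms4a6d (0.22). For Pde3b they were Krt87 (0.17) and Fndc4 (0.22), for Pde10a Car12, a carbonic anhydrase (0.35), and Chit1, a chitinase (0.37), and for Pde7b Gprin3 (0.091) and Tbc1d24 (0.0997). With 6 libraries in 2 groups this ranking mostly follows the group difference.

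Several of the 10 genes are also known from other cells, Pde4b, Pde3b and Pde7a from leukocytes and Pde3a from smooth muscle, so markers of other cells were read beside them. In bulk samples, fewer cells of a type and less RNA per cell cannot be told apart. Counts of markers called stand beside 7.05% higher and 8.6% lower over all genes tested. The 10 leukocyte markers summed to 348 to 397 CPM in sgNeo and 145 to 263 CPM in sgLkb1, and of the 9 tested 2 fell and none rose (no call without sgNeo replicate 2, 1 lower on removal of sgNeo replicate 1 or sgLkb1 replicate 3, and 1 lower and 1 higher without sgLkb1 replicate 2). On all 6 libraries, DESeq2 called 2 leukocyte markers higher and 2 lower. In edgeR a replicate block gave 1 higher and 2 lower, and no filter on low counts gave 2 higher and 3 lower. Ptprc, which encodes the CD45 used in the sort, was at 8.86, 7.98 and 4.86 CPM in sgNeo and 10.4, 4.36 and 5.34 CPM in sgLkb1. The T-cell marker Cd3e was at most 0.202 CPM in any library. The direction of the leukocyte sum rested on Lcp1 (288 to 347 CPM in sgNeo, 77.6 to 171 CPM in sgLkb1): the 9 other markers summed to 46.9 to 70.6 CPM in sgNeo and 67.4 to 91.6 CPM in sgLkb1. Among these, the macrophage marker Cd68 was at 19.0, 15.1 and 18.9 CPM in sgNeo and 39.3, 18.8 and 33.2 CPM in sgLkb1. Laptm5, a lysosomal protein of leukocytes, was at 25.8, 10.5 and 19.2 CPM against 30.5, 36.6 and 33.1 CPM, higher in all sgLkb1 libraries. Neither passed the test in the main fit (edgeR adjusted p = 0.0925 and 0.095).

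Fibroblast markers summed to 119, 46.6 and 37.9 CPM in sgNeo and 181, 263 and 1414 CPM in sgLkb1 replicates 1, 2 and 3, and 4 of 10 rose (2 without sgNeo replicate 1, none on removal of sgNeo replicate 2 or 3, and 1 after sgLkb1 replicate 3 was removed). Without sgLkb1 replicate 3, the library with the highest sum, the log2 fold changes of Pde10a, Pde4b, Pde3b and Pde8a were 4.57, 3.06, 2.60 and 2.55, near their values with it. The sums of sgLkb1 replicates 1 and 2 were still above every sgNeo sum, so that fit does not remove the difference in fibroblast markers. Smooth muscle and pericyte markers summed to 13.3 to 27.9 CPM in sgNeo and 38.5 to 76.9 CPM in sgLkb1. In edgeR 1 of 7 tested was higher (0 to 2 over the fits with a library left out), and DESeq2 called 5 higher. The median log2 fold change of those tested was 1.79. Acta2 was at 7.86 to 17.1 CPM in sgNeo and 17.4 to 36.2 CPM in sgLkb1. It did not pass (edgeR adjusted p = 0.058), but did with DESeq2 (adjusted p = 0.0074). Myh11 was at most 0.631 CPM in any library and was not tested in the main fit. Endothelial markers summed to 253 to 310 CPM and 140 to 256 CPM, with 3 of 10 higher and 1 lower (1 and 1 without sgNeo replicate 1) and a median log2 fold change of 0.82. The lower sum came from Esam (177 to 230 CPM in sgNeo, 36.1 to 80.7 CPM in sgLkb1), and the 9 other endothelial markers summed to 47.7 to 84.5 CPM in sgNeo and 94.3 to 175 CPM in sgLkb1.

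Mesothelial markers, 1 of which (Krt19) is also epithelial, summed to 743 to 1192 CPM in sgNeo and 2026 to 3423 CPM in sgLkb1. Msln and Krt19 made up nearly all of this sum. Upk3b was at 0.802, 0.243 and 0.836 CPM in sgNeo and 0.416, 1.73 and 16.5 CPM in sgLkb1. It did not pass (edgeR adjusted p = 0.11), but did with DESeq2 (adjusted p = 0.0054). Calb2 was at most 0.0734 CPM in any library. In 6 of the 8 markers, counted whether tested or not, all sgLkb1 libraries were above all sgNeo libraries. The share over genes tested was 16.3%, which has another basis, since only 6 of the 8 were tested and Upk3b among them overlapped. The median log2 fold change of those tested was 3.25. Of the 6 tested 3 rose (1 without sgNeo replicate 2 and 6 without sgLkb1 replicate 1). Type 2 alveolar markers were lower in 10 of 10, with sums of 127663 to 150817 CPM and 12889 to 21152 CPM, and 9 or 10 were called lower in each fit on 5 libraries. General epithelial markers summed to 5329 to 6263 CPM in sgNeo and 7291 to 8657 CPM in sgLkb1, with 1 of 8 higher (none on removal of sgNeo replicate 1 or 2, and 2 on removal of sgLkb1 replicate 1). Epcam, which defines epithelium, was at 436, 510 and 556 CPM in sgNeo and 935, 1344 and 940 CPM in sgLkb1, and was thus present in every library. The part of any of these cells in the changes of the phosphodiesterase genes was not tested beyond these values.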

How the data were processed

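Bulk RNA sequencing of sorted tumour cells gave 6 libraries, 3 per group. The deposited table holds expected counts per gene, made by the authors with STAR and RSEM on GRCm38, per the submitters' processing notes, which also name FastQC and DESeq2. Versions, the annotation release and the strand setting are not stated there or in the labels. After rounding to integers, genes passing edgeR's filterByExpr were scaled with TMM and tested with edgeR's quasi-likelihood test (edgeR 4.0.16, R 4.3.3), with Benjamini-Hochberg adjustment over all genes and a threshold of 0.05. Standard errors (SE) were derived as |log2 fold change|/√F. CPM used TMM-scaled library sizes.

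The genes described, and all lists, were chosen with earlier results of these data known. Named genes were the 10, Stk11, every other phosphodiesterase gene, from each further list its 3 lowest p-values and its 2 leading entries, the first 2 of each marker list, and the 2 nearest genes of each of the 10 that passed; Krt19, Calb2, Lcp1, Cd68, Laptm5 and Esam were named after their values were seen, and 1 nearest gene is not reported here. Coordinates and lengths came from GENCODE M21, which held 55141 of 55487 gene IDs without version (54349 with it), and promoter windows from RefSeq. Scripts were tested on simulated data. No 2 libraries were duplicates: the chi-square per gene between replicates was 38.7 to 193. Counting error only is covered by the floor of 3 counts. Alternatives were other scalings and filters, DESeq2 1.42.0, limma-voom (limma 3.58.1), a robust fit, a replicate block, removal of the 10 most abundant genes and leaving out each library. Marker sums without the highest gene of a list were added after seeing the data.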

Additional observations from a re-analysis of the deposited data

How the results depend on the processing

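Against 2501 genes called in all, 3440 were called without a filter on low counts, 3559 with DESeq2, 2279 with limma-voom and 1129 to 2780 with a library left out. Of the 10 phosphodiesterase genes 6 were called, and 5 to 7 under each alternative. Deviations of same-numbered libraries from their group means had correlations of 0.13, -0.02 and 0.11, against -0.17 to 0.088 for libraries of different number. With 3 libraries per group these values cannot show whether the numbers pair them. With a replicate block 2880 genes were called, and 6 of the 10. Over the 6 fits on 5 libraries, log2 fold changes lay between -0.12 and 0.45 for Pde7a, -0.34 and 0.35 for Adcy2, -0.078 and 0.18 for Prkacb and -0.56 and 0.15 for Ptprc, none of which passed; the cause of these turns in sign was not tested. Pde10a, Pde11a and Pde3a have few sgNeo counts, which limits their folds.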
